A study of Mus musculus with 11 samples.

Results

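The mature microRNA (miRNA) content of the sham-operated mouse cortex was described from the 6 small RNA libraries labelled sham, out of 11 libraries in the series. All 1907 mature miRNA names in these 6 tables were included with their raw counts, and no measured value was used to choose them. The libraries came from male Balb/cOlaHsd mice, a wild-type strain, whose age is 3 months in the labels and 3 to 6 months in the methods. The sham operation opened the skull and lifted the middle cerebral artery without closing it, and tissue was taken from perfused brains 3 days later. The labels call the tissue cortex, whereas the methods name peri-ischemic tissue for both surgical groups, so the exact piece of cortex is uncertain. All sham mice had anaesthesia and surgery, and none was untouched. The deposited names of the 6 sham libraries also contain the word vehicle. The methods describe no vehicle treatment of the operated mice, so whether one was given is uncertain. The 5 libraries from mice with a closed artery were not used.

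A miRNA gene is transcribed as a longer RNA that folds into a hairpin, and Drosha and Dicer cut from it a duplex with a -5p and a -3p arm. Usually the strand loaded into an Argonaute protein persists and the other is degraded. Bases 2 to 8 of the loaded strand, the seed, pair with target messenger RNAs, so that miRNAs with the same seed share many possible targets. Hairpins that lie close together on a strand are often cut from a shared transcript. In the cortex miR-124, miR-128, miR-138 and miR-9 are known as neuronal or neural miRNAs, while miR-126, miR-143, miR-145 and miR-451 mark cells of the blood vessels and the blood.

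The 6 tables summed to between 1429037 and 2319810 counts, with a median of 1640689. At least 1 count was listed for 821 to 899 names per library. Of the 1907 names, 642 were counted in every sham library, 533 in 1 to 5 of them and 732 in none, and 424 names had at least 10 counts in each. Values are given as counts-per-million (CPM), which divide a count by the summed miRNA counts of its library, so 3 counts, the most that a count of 0 allows, correspond to 1.29 to 2.10 CPM. The reads carry no molecular identifiers, and every interval below covers counting error only. Small RNA libraries also ligate and amplify some sequences better than others, so a difference between 2 miRNAs or between 2 arms cannot be told apart from a difference in capture. 2 libraries stood apart. Replicate 1 held far more miR-451a, a miRNA of red blood cells, than the others, and in replicate 5 13 of 242 miRNAs of at least 100 CPM lay more than 2-fold below the median of the other libraries, against 0 to 5 elsewhere. The values that moved most with either library are also given without it.

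The seeds of the most abundant miRNAs show how few sequences the counts rest on. They are printed 5′ to 3′ as listed by RefSeq for GRCm38.p6, with bases 2 to 8 in capitals, for members of the largest seed families among the matched names. RefSeq sequences were matched for 1623 of the 1907 names, which held 74.0% ± 1.26 (SD, n = 6) of counts.
miR-29b-3p: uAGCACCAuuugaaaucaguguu
miR-29a-3p: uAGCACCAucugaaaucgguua
miR-29c-3p: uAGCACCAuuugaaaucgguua
miR-128-3p: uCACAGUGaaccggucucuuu
miR-125b-5p: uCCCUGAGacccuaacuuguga
miR-125a-5p: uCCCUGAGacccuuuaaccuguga
let-7g-5p: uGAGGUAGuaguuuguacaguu
let-7f-5p: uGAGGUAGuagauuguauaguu
let-7a-5p: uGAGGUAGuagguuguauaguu
miR-138-5p: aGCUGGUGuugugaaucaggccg
miR-30c-5p: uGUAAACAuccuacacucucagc
miR-30a-5p: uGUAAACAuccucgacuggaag
miR-26a-5p: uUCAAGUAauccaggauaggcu
miR-103-3p: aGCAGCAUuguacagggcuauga
miR-107-3p: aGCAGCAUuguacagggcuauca
The 3 miR-29 sequences share their seed and differ outside it, and miR-29a-3p and miR-29c-3p differ at 1 base over their common length, as do miR-103-3p and miR-107-3p. Among the names of at least 100 CPM, 23 had such a neighbour at 1 mismatch or less, and these held 15.8% of counts. How reads that fit several miRNAs were assigned is not given in the sources used here, so levels within these pairs are uncertain while their family totals are less so.

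Counts in the sham cortex were concentrated on few miRNAs. The leading miRNA held 19.8% ± 1.27 (SD, n = 6) of a library, the 5 leading ones 45.2% ± 1.94, and the 10 most abundant by mean level 56.6% ± 1.56. Between 6 and 8 names were enough for 50% of a library, 64 to 73 for 90% and 221 to 238 for 99%. By mean level, 19 names lay at or above 10000 CPM and held 67.0% of counts, 72 names between 1000 and 10000 CPM held 26.4%, and 152 names between 100 and 1000 CPM held 5.76%.

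miR-124-3p, a neuronal miRNA that represses transcripts of non-neuronal cells, was the most abundant in every library. Its level was lowest at 178983 CPM, at the median 199263 and highest at 211681. The mean was 197809 ± 12745 CPM, and it exceeded the next miRNA in 6 of 6 libraries by 1.31 ± 0.37 on the log2 scale (SD, n = 6). miR-128-3p, which in neurons dampens excitability, ranged from 51326 CPM in replicate 5 to 98740 CPM in replicate 1, with a median of 85078. miR-29b-3p, known for repressing collagens and DNA methyltransferases, ranged from 50736 CPM in replicate 4 to 89047 CPM in replicate 2, with a median of 74503. miR-128-3p lay above miR-29b-3p in 4 of 6 libraries, with a difference of 0.14 ± 0.52 on the log2 scale, so the order of these neighbours was not larger than the spread.

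miR-29a-3p followed at 59295 ± 8647 CPM, above miR-125b-5p, a relative of the worm miRNA lin-4, at 40565 ± 5039 CPM in all 6 libraries. miR-138-5p, which limits the size of dendritic spines, was at 34315 ± 3915 CPM and miR-9-5p, a regulator of neural progenitors, at 30095 ± 2380 CPM, and their order held in 5 of 6 libraries. miR-26a-5p, made from hairpins within the phosphatase genes Ctdspl and Ctdsp2, was steadier at 19388 ± 772 CPM and lay above miR-30d-5p in every library by 0.31 ± 0.08 on the log2 scale. From the 10th place on, the levels lay close together. miR-30c-5p, miR-9-3p, miR-30a-5p, miR-125a-5p, let-7g-5p, let-7f-5p, miR-191-5p, miR-23b-3p, miR-103-3p, miR-434-3p and miR-24-3p had means from 9739 to 14054 CPM. Among these 11, no miRNA lay above the next in more than 5 of 6 libraries, and neighbours in this order did not differ beyond the spread. Its ends did, since miR-30c-5p was at 12287 CPM or more and miR-24-3p at 10517 CPM or less in every library.

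**Figure D1:**
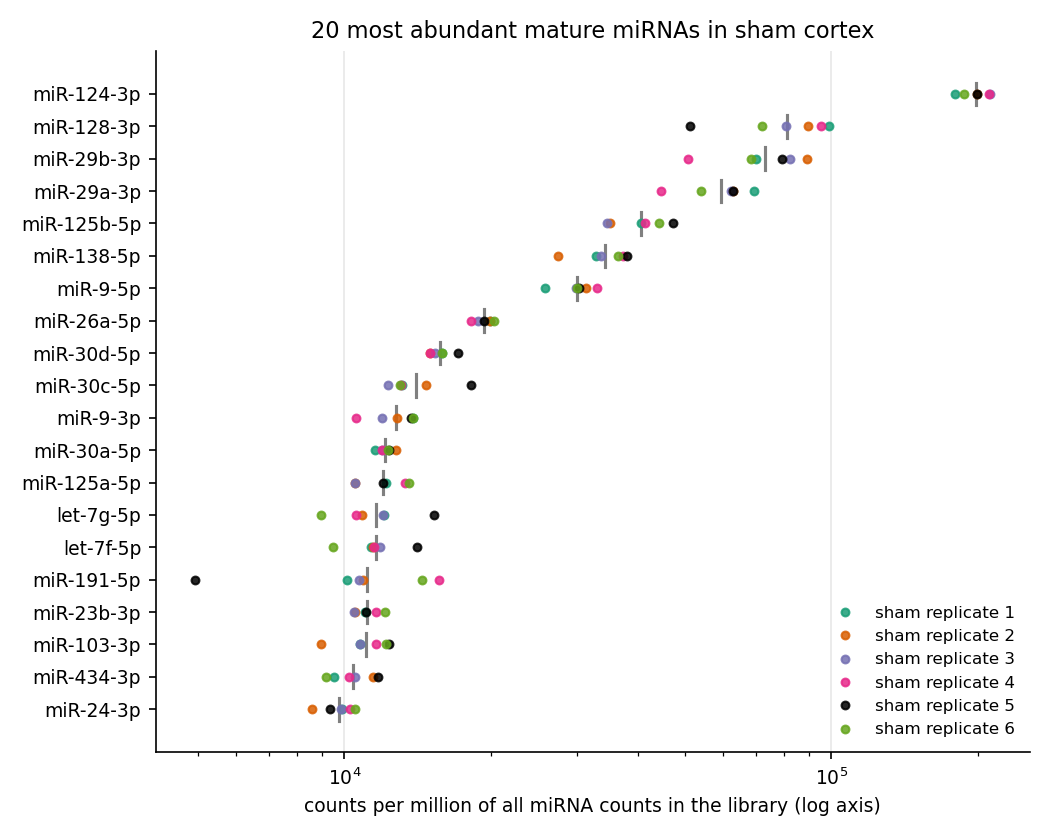
Level of the 20 most abundant mature miRNAs in CPM on a log axis, with 1 point for each of the 6 sham libraries and a grey bar at the mean. miR-124-3p stands above all others with a mean of 197809 CPM, and miR-191-5p at 4947 CPM in replicate 5 is the point farthest from its neighbours.

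The seed families cover the matched names only. miR-124-3p, miR-30d-5p and miR-23b-3p are therefore in none of them, although miR-124-3p alone held 19.8% of counts. Grouped by the number in the name, which needs no sequence, miR-124 held 19.8%, miR-29 14.2% and miR-128 8.13%. Next were let-7, miR-30, miR-125, miR-9 and miR-138, from 5.33% down to 3.46%. They were followed by miR-23 with 2.0% and miR-26 with 1.99%. Among the matched names, the miR-29 family was the largest, with 14.1% ± 2.37 of all counts (SD, n = 6). The family's share was lowest in replicate 4 at 9.87%, 14.9% at the median and highest in replicate 2 at 16.4%. miR-29b-3p made up 51.9% of it, miR-29a-3p 42.1% and miR-29c-3p 6.02%. The seed of miR-128-3p had no other matched member and held 8.12% ± 1.76, with 5.13% in replicate 5 and 9.87% in replicate 1, and without replicate 5 the mean level of miR-128-3p was 87219 CPM.

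The miR-125 family, which targets regulators of proliferation and development, held 5.26% ± 0.61 of counts, and miR-125b-5p was 77.1% of it and miR-125a-5p 22.8%. The let-7 family, whose members mark differentiated cells and oppose the protein Lin28, held nearly the same share, 5.24% ± 0.55. In contrast to the miR-125 family it was spread over many members. Of its 11 detected names 9 had at least 10 counts in every library, led by let-7g-5p and let-7f-5p with 22.2% each, let-7a-5p with 14.3% and let-7c-5p with 12.8%. The ranges of the miR-125 and let-7 families overlapped, from 4.51% to 5.94% and from 4.30% to 5.91%.

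miR-138-5p with 3.43% ± 0.39 and miR-9-5p with 3.01% ± 0.24 were again the only matched members of their seeds. The matched members of the miR-30 family, miR-30c-5p, miR-30a-5p, miR-30e-5p and miR-384-5p, held 3.31% ± 0.27. Counting every name with the number 30, whether matched or not, gave 5.31% ± 0.41, so the seed value is a lower limit for that family. The miR-26 family held 1.98% ± 0.08, of which miR-26a-5p was 97.8%. The pair miR-103-3p and miR-107-3p, known from insulin signalling, held 1.31% ± 0.15, with 85.1% on miR-103-3p. The seed of miR-9-3p, the other arm of miR-9, held 1.28% ± 0.13. The miR-181 family held 1.22% ± 0.10, with 74.1% on miR-181a-5p and 16.4% on miR-181b-5p. miR-132-3p and miR-212-3p, whose shared transcript is induced by neuronal activity through CREB, held 1.17% ± 0.17, with 69.3% on miR-132-3p. These 12 families held 49.4% of all counts. The matched names had 1352 seeds, of which 306 had a member with at least 10 counts in every library.

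**Figure D2:**
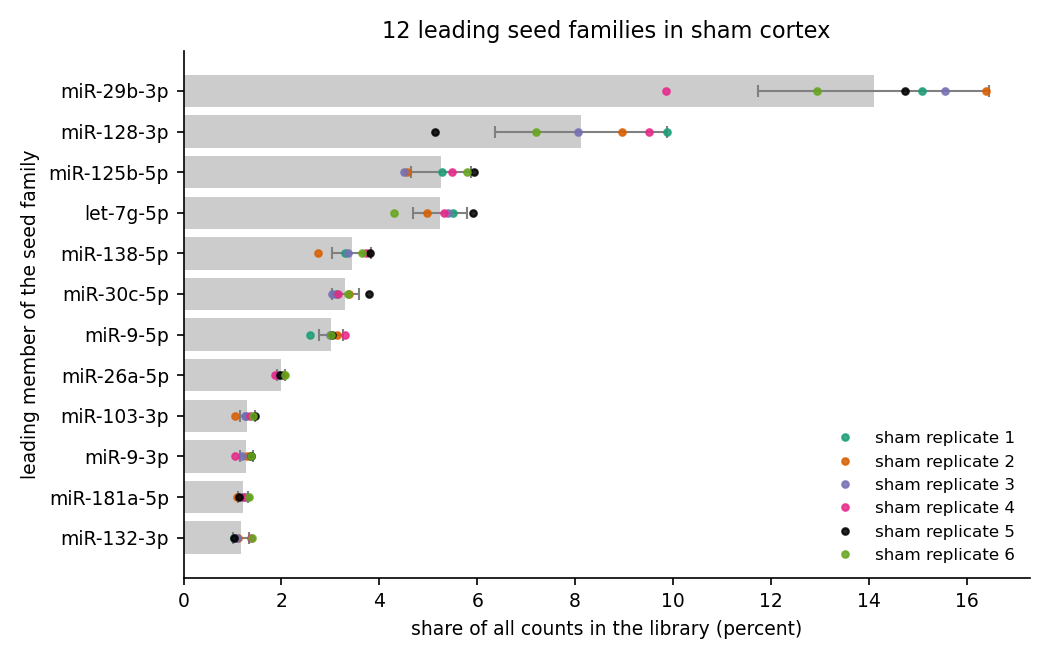
Share of all counts held by the 12 leading seed families of the names matched to RefSeq, which leave out miR-124-3p, each named by its leading member. Bars are means over 6 sham libraries, whiskers are 1 SD and points are the libraries. The miR-29 family reaches 16.4% in replicate 2 and 9.87% in replicate 4, and the miR-128 seed is lowest in replicate 5 at 5.13%.

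Hairpin positions were taken from GENCODE vM21 on GRCm38, the build called mm10, and were found for 1895 names. A name made from several hairpins was split evenly between them, since the counts do not say which hairpin a mature miRNA came from. This concerned 78 names with 58.7% ± 1.16 of counts, among them miR-124-3p with 3 hairpins and miR-128-3p, miR-29b-3p, miR-125b-5p and miR-138-5p with 2 each. Hairpins on a strand within 10 kb of the next formed a cluster. There were 80 clusters of at least 2 hairpins, and they held 49.5% ± 1.59 of counts. The 10 leading clusters held 35.8%.

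The pair Mir29a and Mir29b-1 at chr6:31062660-31063093, minus strand, led with 9.61% ± 1.43, ranging from 7.03% in replicate 4 to 10.7% in replicate 2. Mir29b-1 overlaps an exon of the long non-coding gene Gm27019. Without the even split, from miRNAs of a single hairpin only, this pair held 5.95%. The other miR-29 pair, Mir29b-2 and Mir29c at chr1:195037040-195037634, plus strand, lies in exons of the non-coding gene A330023F24Rik and held 4.59% ± 0.97. Of that share 79.7% was miR-29b-3p by the even split. Mir124a-1 at chr14:64590657-64590741, in an exon of Mir124a-1hg, held 6.61% ± 0.42 by the even split of miR-124-3p, and its neighbour Mir3078 gave almost nothing, with 3.26 CPM for miR-3078-5p.

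2 clusters on chromosome 12, plus strand, belong to the imprinted Dlk1-Dio3 domain, where the miRNAs are known to be expressed from the maternal chromosome and to be abundant in brain. The 14 hairpins from Mir770 to Mir136 at chr12:109563692-109595388 held 2.95% ± 0.03 of counts, between 2.91% and 2.99% in every library. The 38 hairpins from Mir379 to Mir410 and Mir3072 at chr12:109709060-109747960 held 3.22% ± 0.26. Members within a cluster differed far more than the cluster totals did between libraries. In the first, Mir434 gave 11250 CPM from both arms together and Mir136 gave 10908 CPM, while 9 of 14 hairpins reached 100 CPM and Mir432 was at 0. miR-434-3p alone made up 35.4% and miR-136-5p 32.7% of this cluster. In the second, Mir376a led with 7579 CPM, 26 of 38 hairpins reached 100 CPM and 10 reached 1000 CPM, and 2 were at 0. miR-376a-3p was 22.5% of the second cluster, and no other name reached 10% of it.

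**Figure D3:**
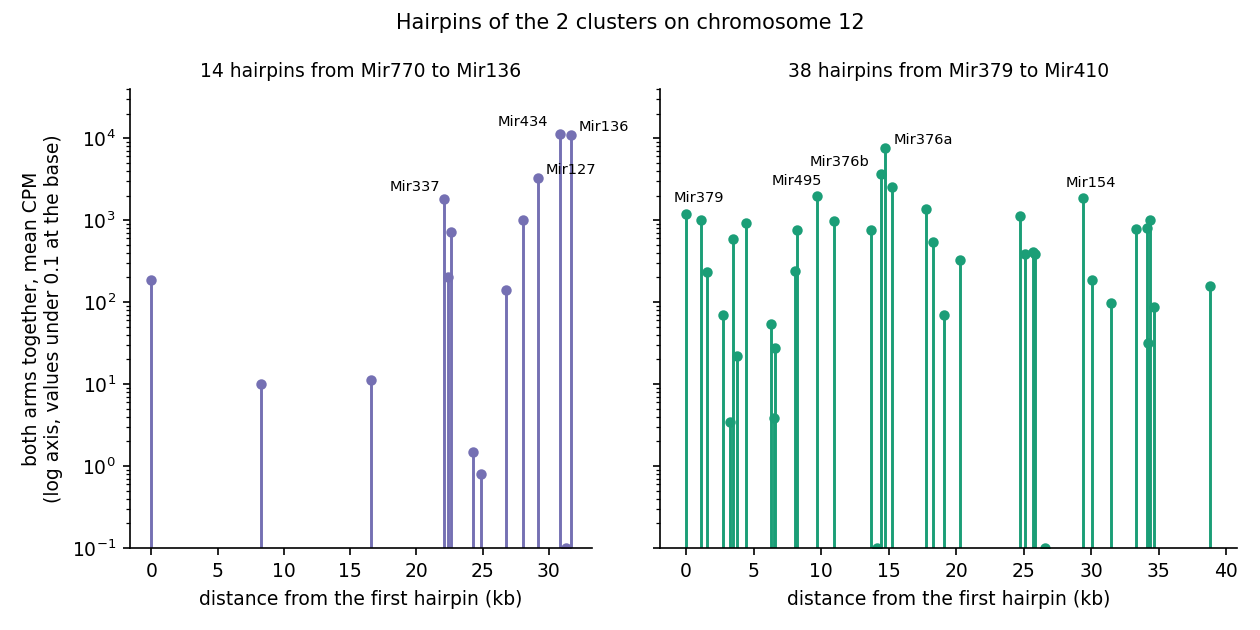
Mean level of each hairpin, both arms together, in CPM on a log axis against its distance in kb from the first hairpin of its cluster, for the 2 clusters on chromosome 12. Levels differ widely within each cluster, from 11250 CPM for Mir434 to 0 for Mir432, and hairpins under 0.1 CPM are drawn at the base.

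The remaining leading clusters were small. Mir30b and Mir30d at chr15:68337415-68341289 held 2.04% ± 0.15, with 76.9% on miR-30d-5p and 23% on miR-30b-5p. Mir99b, Mirlet7e and Mir125a at chr17:17830188-17830879, within Spaca6, held 1.92% ± 0.17, with 62.4% on miR-125a-5p, 26.7% on let-7e-5p and 10.2% on miR-99b-5p. The 2 related clusters of miR-23, miR-27 and miR-24, known from endothelial cells, were close in size. Mir23b, Mir27b and Mir24-1 at chr13:63300484-63301275 held 1.82% ± 0.10, and Mir23a, Mir27a and Mir24-2 at chr8:84208518-84208921 held 1.52% ± 0.12. With miR-24-3p split evenly, the miR-23 member gave most counts in each, 61% for miR-23b-3p and 58.5% for miR-23a-3p. The miR-27 member gave fewest, 12% for miR-27b-3p and 8.74% for miR-27a-3p. Before the split miR-24-3p was at 9739 CPM, miR-23b-3p at 11128 CPM and miR-23a-3p at 8881 CPM. By these means miR-23b-3p would lead its cluster under any split. The rest of the order and the sizes of both clusters depend on the split. Mirlet7d, Mirlet7f-1 and Mirlet7a-1 at chr13:48536012-48538272 held 1.5% ± 0.14, with 38.8% on let-7f-5p, 33.0% on let-7d-5p and 25% on let-7a-5p. There let-7f-5p and let-7a-5p were split evenly as well.

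By annotation on their own strand, 81 hairpins overlap an exon of a long non-coding gene, which is 6.88% of the 1178 hairpins. They held 45.4% ± 1.53 of counts. That share includes Mir124a-1 with 6.61% and the pair Mir29b-2 and Mir29c with 4.59%, both by the even split. The 513 hairpins in introns of protein-coding genes, 43.5% of hairpins, held 22.6% ± 1.21. Among them were Mir128-1 in R3hdm1 and Mir128-2 in Arpp21. The 349 hairpins with no gene on their strand held 17.6% ± 0.87.

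Arm use was compared within each hairpin. Hairpins that share a mature name were joined, which left 775 groups with both arms named. The 272 groups with at least 10 counts of both arms together in every sham library were tested with edgeR's quasi-likelihood test, with the library as a block and Benjamini-Hochberg adjustment. The -5p arm was higher in 127 groups (46.7% of those tested) and the -3p arm in 135 (49.6%), and 10 groups were not called. The same arm was higher in all 6 libraries in 256 groups. The 2 arms were thus near even by groups but not by counts, since -3p names held 60.5% ± 1.71 of counts and -5p names 39.2% ± 1.73. Without miR-124-3p the -5p names held 48.8% ± 2.26.

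Most hairpins left counts almost wholly on 1 arm. The median share of the minor arm was 3.05%. Of the 190 groups with at least 100 CPM, the minor arm held under 1% in 63, 1% to 10% in 71, 10% to 25% in 26 and 25% or more in 30. In 88 of the 272 groups the -5p arm held under 5%, and in 69 it held at least 95%, as the plot of arm shares shows.

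**Figure D4:**
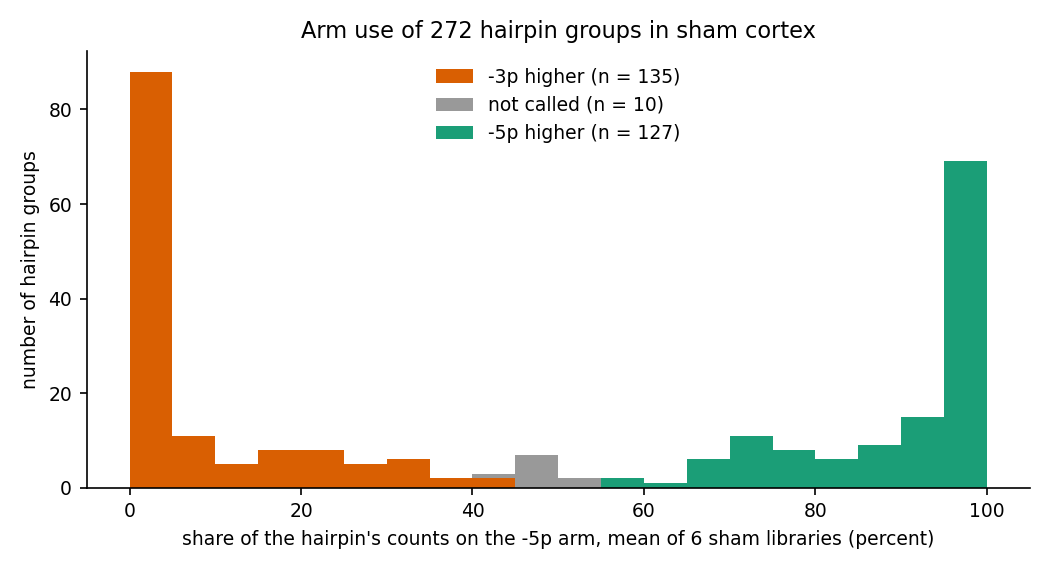
Number of hairpin groups by the share of their counts on the -5p arm in steps of 5%, averaged over 6 sham libraries, coloured by the edgeR call at an adjusted p of 0.05. The groups pile up at both ends, 88 below 5% and 69 at 95% or above, and 7 lie between 45% and 50%.

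At the -5p end stood miR-30d, miR-26a, miR-149, miR-346 and miR-30b. Over the 6 libraries together, 161390 counts fell on miR-30d-5p and 29 on miR-30d-3p, a ratio of 5565 (95% interval 3875 to 8310, exact, counting error only). For miR-26a the counts were 200638 and 67, a ratio of 2995. miR-149 had 24810 counts against 17, miR-30b 48458 against 42, and miR-346 3165 against 2, a ratio of 1583 with a wide interval of 438 to 13073. At the -3p end stood miR-101b, miR-320, miR-23a, miR-344 and miR-326. miR-101b-3p had 20768 counts against 1 on the -5p arm, a ratio of 20768 (95% interval 3727 to 820331). miR-101a-3p, at 7870 CPM, differs from miR-101b-3p at 1 base where they align. The part of read assignment in this ratio was not tested. For miR-320, whose hairpin is known to be processed without Drosha, no -5p count was listed in any library against 4889 on the -3p arm, so that the -3p arm was at least 1630-fold higher against a floor of 3 counts over the 6 libraries, the one-sided 95% limit for a count of 0. The lower limit of the interval used for the other hairpins was 1325 here. miR-23a had 19 against 91387 counts, miR-326 had 5 against 18592 and miR-344 had 2 against 9080. In 14 of the 272 groups the minor arm was at 0 in all libraries.

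At the middle stood miR-219a, miR-540, miR-370, miR-361, miR-872 and miR-770, all among the 10 groups that were not called. miR-219a, an oligodendrocyte miRNA, had 51.7% ± 7.04 of its counts on the -5p arm (42.8% to 60.7%), a log2 ratio of 0.10 ± 0.15 (SE) and an adjusted p of 0.529 by edgeR. miR-361 lay at 47.5% ± 11.5 with a range from 30.6% to 60.2%, so that either arm could be the higher one. miR-770 lay at 45.9% ± 2.02, never above 48.6%, yet its log2 ratio of -0.24 ± 0.14 had an adjusted p of 0.118 by edgeR. A difference that is not called does not show that the arms were equal.

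Both arms were abundant for several hairpins of known neuronal or vascular origin. miR-9 had 30095 CPM on miR-9-5p and 12796 CPM on miR-9-3p, whose seeds differ, and the -5p share was 70.1% ± 3.56 with a range from 65.1% to 75.8%. The log2 ratio was 1.24 ± 0.12 (SE), adjusted p = 1.47e-07 by edgeR.
miR-9-5p: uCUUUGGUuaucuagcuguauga
miR-9-3p: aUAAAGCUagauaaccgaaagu
Bases 2 to 8 are again in capitals, to show that the 2 arms of this hairpin have different seeds. miR-126a, an endothelial hairpin within the gene Egfl7, had 34.2% ± 5.96 of its counts on the -5p arm, and in replicate 5 22.3%. Its log2 ratio was -0.96 ± 0.14 (SE) with all libraries and -0.80 without replicate 5. miR-132 had 26.6% ± 1.70 on the -5p arm, miR-127 30.3% ± 3.13, miR-136 88.3% ± 0.94 and miR-434 7.35% ± 2.22. miR-29c varied most among the miR-29 hairpins, with 8.66% ± 4.71 on the -5p arm and a range from 4.45% to 17.2%, whereas miR-29a had 0.31% ± 0.04.

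The spread between the sham libraries was measured on CPM scaled with TMM, over the 423 miRNAs that passed edgeR's filter on low counts. The median coefficient of variation (CV) was 17.7%, and edgeR's common biological CV was 22.2%. For the 242 miRNAs of at least 100 CPM the median CV was 14.3%, against 3.03% that counting alone would give, and 217 of them varied by more than 2 times the counting error. In 57 the CV was under 10% and in 17 it was over 30%. For 212 miRNAs the highest library was less than 2 times the lowest.

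The steadiest were miR-24-3p with a CV of 3.13%, miR-23b-3p with 3.22%, miR-455-3p with 3.69%, miR-125a-5p with 4.93%, miR-379-5p with 5.08%, miR-22-5p with 5.14%, miR-181a-5p with 5.15% and miR-433-3p with 5.34%. miR-24-3p ran from 9303 to 10221 TMM-scaled CPM. miR-379-5p and miR-433-3p come from the chromosome 12 clusters. The CV of miR-455-3p lay below its counting error of 6.54%.

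The most variable miRNA was miR-451a, an erythroid miRNA cut by Argonaute 2 in place of Dicer, with a CV of 212%. It stood at 4853 TMM-scaled CPM in replicate 1 and between 40.3 and 246 in the others, and without replicate 1 the CV was 78.2%. miR-223-3p, a miRNA of neutrophils and other myeloid cells, had a CV of 50.8%, with 120 to 400 TMM-scaled CPM, and miR-142a-3p, found in all blood-forming cells, 40.2%. miR-29c-3p had a CV of 48.2%. It was at 11486, 13816 and 11446 TMM-scaled CPM in replicates 1 to 3 and at 3027, 5704 and 6554 in replicates 4 to 6, while miR-29c-5p from the same hairpin had a CV of 5.91%. Since miR-29a-3p differs from miR-29c-3p at 1 base, the part of read assignment in this was not tested. miR-1249-3p had a CV of 41.0%, and it too was lowest in replicate 4. miR-674-3p with 53.5%, miR-540-5p with 39.1% and miR-99b-5p with 37.2% were all lowest in replicate 5. Without that library their CVs were 22.5%, 27.7% and 7.04%.

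The latter 3 share their first base, and this led to a comparison chosen after their values were seen. Each library was set against the median of the other 5, miRNA by miRNA, as a log2 difference of TMM-scaled CPM with 1 added, for the 214 matched miRNAs of at least 100 CPM. All 36 miRNAs whose mature sequence begins with cytosine lay below the median of the other libraries in replicate 5, with a median difference of -0.61. Of the 178 miRNAs with another first base 69 did so, with a median difference of 0.10. In 29 of the 36 replicate 5 was the lowest library, and in 24 of the 178. The miRNAs most affected are printed with the leading C in capitals.
miR-674-3p: Cacagcucccaucucagaacaa
miR-99b-5p: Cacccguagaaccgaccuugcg
miR-324-5p: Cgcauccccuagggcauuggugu
miR-186-5p: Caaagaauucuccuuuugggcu
miR-17-5p: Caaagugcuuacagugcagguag
miR-191-5p: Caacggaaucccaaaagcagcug
miR-540-5p: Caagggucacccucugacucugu
miR-497a-5p: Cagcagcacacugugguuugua
These are the 8 beginning with C among the 11 miRNAs that were at under 0.5 of the median of the others in replicate 5. Adenine was the second base in 10 of the 11, and in 71 of the 214. Those 71 had a median difference of -0.04 in replicate 5. miR-674-3p stood at 11.9 TMM-scaled CPM there and at 423 to 739 in the other libraries, which are 17 counts against 787 to 1305. miR-99b-5p stood at 495 against 2097 to 2497, and miR-324-5p at 259 against 789 to 1042. miR-191-5p, the 16th most abundant miRNA, stood at 4937 against 10066 to 14824, and miR-17-5p, of the growth-promoting miR-17-92 cluster, at 118 against 275 to 307.

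The difference was not even among them. The 18 that begin with CA had a median of -0.74, the 9 with CU -0.43, the 5 with CC -0.54 and the 4 with CG -0.16, and miR-138-1-3p (-0.04), miR-127-5p (-0.06) and miR-322-5p (-0.10) were hardly lower. In the other 5 libraries the median difference of the miRNAs beginning with C lay between 0.00 and 0.10. Cytosine-first miRNAs held 2.01% of the matched counts in replicate 5 and up to 4.70% elsewhere. Without replicate 5 their median CV fell from 17.6% to 10.7%, and that of the others went from 13.4% to 11.9%. The depth of replicate 5, 1429037 counts, was the lowest of the 6, and the cause of the difference was not tested. Arm shares moved along with it. miR-674 had 98.6% of its counts on the -5p arm in replicate 5 and 62.3% to 72.4% in the others, and its log2 ratio was 1.5 ± 0.47 (SE) with all libraries and 1.01 without replicate 5.

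**Figure D5:**
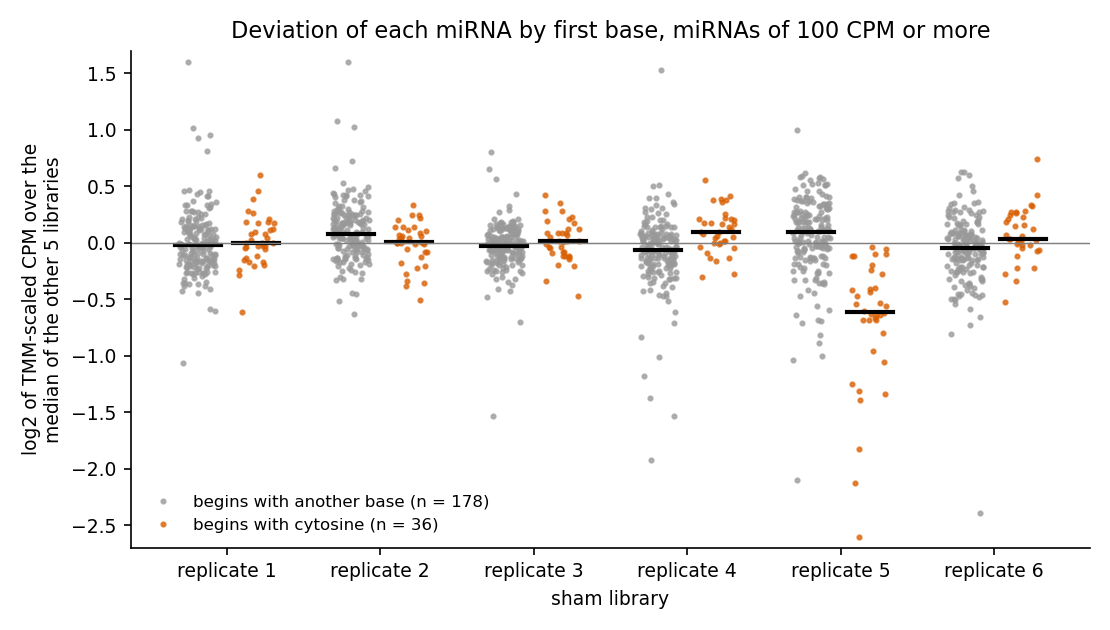
Log2 difference of each miRNA's TMM-scaled CPM from the median of the other 5 libraries, for 36 miRNAs that begin with cytosine and 178 that do not, by sham library, with black bars at the medians. Only in replicate 5 do the miRNAs beginning with cytosine sit below 0 together, with a median of -0.61, and 3 points beyond the axis limits are drawn at its edges.

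By counts of the matched names the first base was mostly uracil, the base that the Argonaute pocket is known to prefer. Uracil came first in 40.2% of the 1623 matched names but in 74.2% ± 1.95 of their counts (SD, n = 6). Of the 375 matched names with at least 10 counts in every library it came first in 41.3%. The excess of uracil thus lay in the counts of abundant miRNAs and hardly in the number of names, and its cause was not tested. Adenine held 20.2% ± 1.51, cytosine 3.68% ± 0.97 and guanine 1.92% ± 0.13. Mature lengths of 22 bases held 48.3% of these counts, 23 bases 29.9% and 21 bases 18.9%. The mean GC content was 44.2% ± 0.54 by counts and 52.3% by names.

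The levels of miRNAs typical of cell types were summed to check the labelled tissue. The 8 neuronal miRNAs summed to 339428 ± 18504 CPM, and all had at least 10 counts in every library, from miR-129-5p at 209 CPM to miR-124-3p. The oligodendrocyte miRNAs miR-219a-5p, miR-219a-2-3p, miR-338-3p and miR-338-5p summed to 4929 ± 405 CPM, of which miR-338-3p gave 3125. The endothelial pair miR-126a-3p and miR-126a-5p summed to 10591 ± 1330 CPM. The list of mural cells and fibroblasts, which surround the vessels, summed to 7842 ± 1134 CPM, nearly all from miR-145a-5p at 6687 and miR-143-3p at 1093. In bulk tissue, more cells of a type and more RNA per cell cannot be told apart.

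The myeloid list summed to 481 ± 176 CPM (321 to 754). It was highest in replicate 1, and without that library the mean was 426 ± 129 CPM. Its members were miR-223-3p at 233 CPM, miR-142a-3p at 113, miR-142a-5p at 70.5 and miR-146a-5p at 61.7. The lowest was miR-155-5p, a miRNA of activated immune cells, at 3.23 CPM. The erythrocyte list ran from 51.0 to 241 CPM in 5 libraries and reached 5130 in replicate 1, with miR-451a as its leading member, and without that library the mean was 132 ± 97.6 CPM. For epithelium and choroid plexus the sum was 1739 ± 172 CPM, of which miR-204-5p, which the choroid plexus expresses strongly, gave 1604. Of the 10 miRNAs in this list only 4 had at least 10 counts in every library. The next highest member, miR-200a-3p, was at 51.5 CPM. The striated muscle list summed to 493 ± 62.9 CPM, about as much as the myeloid list, with miR-1a-3p at 308 and miR-133a-3p at 182 CPM. The lists of the remaining tissues were lower. miR-122-5p of the liver and miR-375-3p of endocrine glands summed to 11.6 ± 3.84 CPM. The 4 miRNAs of the Hox clusters summed to 13.8 ± 6.40 CPM (11.4 without replicate 1). Of these miR-10a-5p gave 10.4 and miR-10b-5p 3.43 CPM, and miR-196a-5p and miR-196b-5p were at 0 in all libraries. In the embryonic stem cell list 6 of the 7 miRNAs were at 0 in all libraries.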

How the data were processed

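The authors enriched small RNA with the miRVana kit, made libraries with the Ion Total RNA-Seq Kit V2 and sequenced them on an Ion Torrent instrument. They trimmed reads in Torrent Suite, checked them with FastQC, kept those of 20 to 30 bp, mapped them to mm10 with Bowtie and counted miRBase v21 entries with HTSeq. The settings of both tools are not given in the sources used here. The deposited values are raw counts per mature name, without RNA outside miRNAs.

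CPM and shares were computed from total counts, and the spread after TMM scaling. Arm use was tested with edgeR 4.0.16 in R 4.3.3 after a check on simulated data, and DESeq2 1.42.0 was an alternative. SEs are the log2 ratio over the square root of F. The 6 libraries are labelled as replicates and were taken to come from separate mice, a point that the methods do not state. All pairs differed by more than counting noise (chi-square per degree of freedom at least 18.0), which cannot tell mice from library preparations. The arms of a library are paired by construction.

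The miRNAs, lists and tests were chosen with earlier results of these data known. Named are the 20 most abundant miRNAs, members with at least 10% of the 12 leading seed families or 10 leading clusters, the 6 most balanced hairpins and the 5 most one-sided at each end, the 8 most and 8 least variable miRNAs (these and the hairpins of at least 100 CPM), and the members of the cell type lists. Others were chosen after their values were seen.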

Additional observations from a re-analysis of the deposited data

Results flagged for a closer look

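Of 100 values checked for a single library beyond Dixon's limit for 6 libraries, 12 had one. Chance gives about 1 in 20 only for values not chosen for their spread, whereas the most variable miRNAs and those low in replicate 5 were so chosen, and the erythrocyte list holds miR-451a. 4 were in replicate 5. The cluster of Mir30b and Mir30d held 2.33% of counts there and 1.91% to 2.04% in the other libraries. miR-99b-5p stood at 495 TMM-scaled CPM there against 2097 to 2497, miR-324-5p at 259 against 789 to 1042, and miR-17-5p at 118 against 275 to 307. These 3 miRNAs begin with cytosine, and the cause was not tested.

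3 values were in replicate 1. miR-451a was at 4853 TMM-scaled CPM against 40.3 to 246 in the others, and the erythrocyte list that holds it at 5130 CPM against 51.0 to 241. The list of Hox cluster miRNAs was at 26.0 CPM against 7.98 to 14.7.

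In replicate 2 the total of 2319810 counts lay above the 1429037 to 1674303 of the other libraries, the list of mural cells and fibroblasts was at 9947 CPM against 6639 to 7841, and miR-326 had 0.125% of its counts on the -5p arm against 0 to 0.0217%. In replicate 4 the embryonic stem cell list was at 0.597 CPM and at 0 in the others, and in replicate 6 miR-101b had 0.0305% of its counts on the -5p arm and 0% in the others. The last 3 rest on very few counts.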

How the results depend on the processing

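The share of the Mir29a and Mir29b-1 cluster fell from 9.61% to 5.95% when miRNAs with several hairpins were left out, which removes miR-29b-3p. The uracil share went from 74.2% to 71.0% without miR-128-3p, the most abundant matched miRNA. Names found in every library numbered 642 with any count and 424 with at least 10. With at least 1 count of both arms over all libraries together, in place of 10 in every library, 624 groups were tested in place of 272, and 168 were called -5p and 205 -3p higher in place of 127 and 135. Without the replicate block, that is, without pairing the arms by library, 127 and 135 groups were called, as with it. The miR-30 share of 5.31% against 3.31% and the cytosine share without replicate 5 were added after the data were seen.

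Leaving out 1 library at a time gave 56.2% to 57.0% for the 10 most abundant miRNAs, 13.6% to 14.9% for the miR-29 family, 9.39% to 10.1% for the leading cluster, 648 to 669 names in every library, 126 to 129 and 133 to 139 groups called, and a median CV of 14.6% to 18.7%. DESeq2 called 127 and 135, a 2-fold limit left 123 and 129, and at least 100 counts in every library left 99 and 94 of 199 tested. Of 262 arm calls 258 held without any 1 library, and miR-1843a, miR-542, miR-505 and miR-673 were lost without some. In the settings that tested them, 0 reversed. At these depths 3 counts are 1.29 to 2.10 CPM, so differences among rarer miRNAs were not detectable.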

Other observations

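The following values were chosen after they were seen. miR-494-5p had 45 counts in replicate 5 and 0 in each of the others, while miR-494-3p had 67 to 101 counts in all of them. miR-15b-5p had 273, 163, 71, 8, 17 and 29 counts in replicates 1 to 6, and the -5p share of miR-15b had the largest SD of all tested groups, 21.9 percentage points against a median of 1.21. miR-140-3p, which does not begin with cytosine, was also low in replicate 5, at 958 TMM-scaled CPM against 1847 to 2346.

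Among names with at least 10 counts in every library and a RefSeq sequence, cytosine came first in 22 of 168 -5p names and in 48 of 200 -3p names. With names of several hairpins split evenly, hairpins on chromosomes 9, 1 and 6 held 11.8%, 11.7% and 9.99% of counts. Those on chromosome 12 held 6.83% from 94 hairpins. The order of chromosomes rests on that split, which gave Mir128-2 on chromosome 9 4.07% of counts.

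Rare names added little. The 470 names detected at a mean under 1 CPM held 0.0147% of counts together, with a median CV of 167%, against 11.3% for the 19 names above 10000 CPM, and 201 names were counted in exactly 1 library.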
